A study of Mus musculus with 6 samples.

Results

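The axon guidance ligands and receptors are the secreted or membrane-bound cues of the netrin, Slit, semaphorin and ephrin families and the receptors that read them, here the netrin receptors (Dcc, Neo1 and the Unc5 genes), the Robos, the plexins and the Eph receptors. Members were taken by gene symbol from the table of all genes, and 61 of the 16300 genes matched, 32 ligands and 29 receptors. Each of the 61 averaged at least 10 normalized counts over the 6 libraries, the minimum set for testing, so this minimum removed none of them. The table itself held no gene with a mean under 10.2 reads. The mouse annotation holds 72 genes whose symbols match, and the other 11 were not analysed here. They include Ntn3, Ntn5, Sema5b, Plxnb3, Epha6, Epha8 and Epha10.

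The RNA-seq data came from cultured primary granulosa cells (GCs), the follicle cells that enclose and nourish the oocyte and make estrogen. All 6 libraries were from wild type C57BL/6J females aged 8 to 9 weeks, and each was made from GCs pooled from several mice. In 3 libraries the cells received medium alone (control) and in 3 they received dihydrotestosterone (DHT), an androgen that aromatase does not convert to estrogen, at 25 nM for 24 h. The labels give the source as ovary and describe the extracted material as whole tissue, and their treatment text names DHT for every sample, so the groups were taken from the treatment characteristic of each sample.

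Guidance cues were first described as signals that attract or repel a growing axon, and the same molecules act in vessels, epithelia and the gonads, where they change adhesion, cell shape and survival. Netrin-1 binds Dcc, neogenin (Neo1) and the Unc5 receptors, and Dcc and Unc5 receptors are also known as dependence receptors, which can trigger apoptosis when no ligand is bound. Slits bind Robos, class 3 semaphorins act mostly through neuropilins with plexins as the signalling partner, Sema3e binds Plxnd1 directly, Sema7a binds Plxnc1, and ephrins and Eph receptors signal in both directions between touching cells.

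The recovered read totals were 36111177 to 41928585 per library, and the 10 highest genes took 5.38% to 5.91% of each. Of the granulosa markers, 9 of 10 were in the table, with a summed level of 124940 to 138943 normalized counts in control and 112169 to 121451 in DHT, while Cyp19a1 was not in the table. Of these markers Inha fell (log2 fold change -0.61, adjusted p = 0.00162, limma), Foxl2 fell just inside the threshold (-0.15, adjusted p = 0.049) and Hsd17b1 rose (0.48, adjusted p = 0.00442). Endothelial markers (5 of 7 in the table) summed to 246 to 299 in control and 222 to 310 in DHT, with Tie1 and Emcn not in the table, and the 5 immune markers in the table of 7 summed to 496 to 574 and 365 to 621, with 1 of them, Csf1r, lower in DHT (log2 fold change -0.64, adjusted p = 0.027). Smooth muscle markers (5 of 5) summed to 6687 to 10075 in control and 12152 to 14355 in DHT, and 3 of them rose (Acta2, Myh11 and Cnn1). The 5 of 7 neuron and glia markers in the table summed to 446 to 501 in control and 551 to 595 in DHT, and 1 of the 5 passed, higher in DHT. The 6 oocyte markers summed to 280 to 752 in control and 34.9 to 531 in DHT, the lowest value being that of DHT replicate 2. Of the other marker lists, theca (3 of 5 in the table, without Cyp17a1 and Insl3) summed to 84760 to 101014 in control and 111977 to 136396 in DHT, where Cyp11a1 rose (log2 fold change 0.49, adjusted p = 0.00997) and Nr2f2 and Ptch1 did not pass (-0.17 and -0.19), while stroma (5 of 5) summed to 3500 to 4444 and 4016 to 4536, and surface epithelium (5 of 5) to 2643 to 3091 and 2151 to 2784. Of the marker genes named, Inha passed under all 15 alternatives, Hsd17b1 and Acta2 under 14, Cyp11a1 and Myh11 under 12 (not without DHT replicate 2 or 3, adjusted p 0.0514 to 0.0629), Csf1r under 11 (not without DHT replicate 2, DHT replicate 3 or control replicate 1, adjusted p 0.0877 to 0.101), Cnn1 under 8 and Foxl2 under 6. Leaving out a library ended the result for Cnn1 except for control replicate 2 (adjusted p up to 0.149) and for Foxl2 except for control replicate 3 (up to 0.145). The part of other cell types in the results that follow was not tested, and in bulk RNA fewer cells of a type cannot be told apart from less RNA per cell.

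Axon guidance genes were expressed in GCs at very different levels. Per kilobase of exon, the control level of the members ran from 0.743 normalized counts for Unc5c to 2070 for Plxnb2, with a median of 71.4. The highest member of each family was Plxnb2 among plexins (2070 ± 49.5 normalized counts per kilobase in control, SD, n = 3), Epha2 among Eph receptors (2046 ± 350), Ntn4 among netrins (1576 ± 131), Sema3c among semaphorins (1141 ± 108), Neo1 among netrin receptors (1032 ± 83.8), Robo2 among Robos (1010 ± 161), Efnb2 among ephrins (558 ± 62.5) and Slit2 among Slits (71.1 ± 0.27). By family, the plexins had the highest median, 839 normalized counts per kilobase, while the median of the netrin receptors was 5.13 and that of the Eph receptors 14.4. In the latter families a few genes held most of the level and the rest were low.

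**Figure D1:**
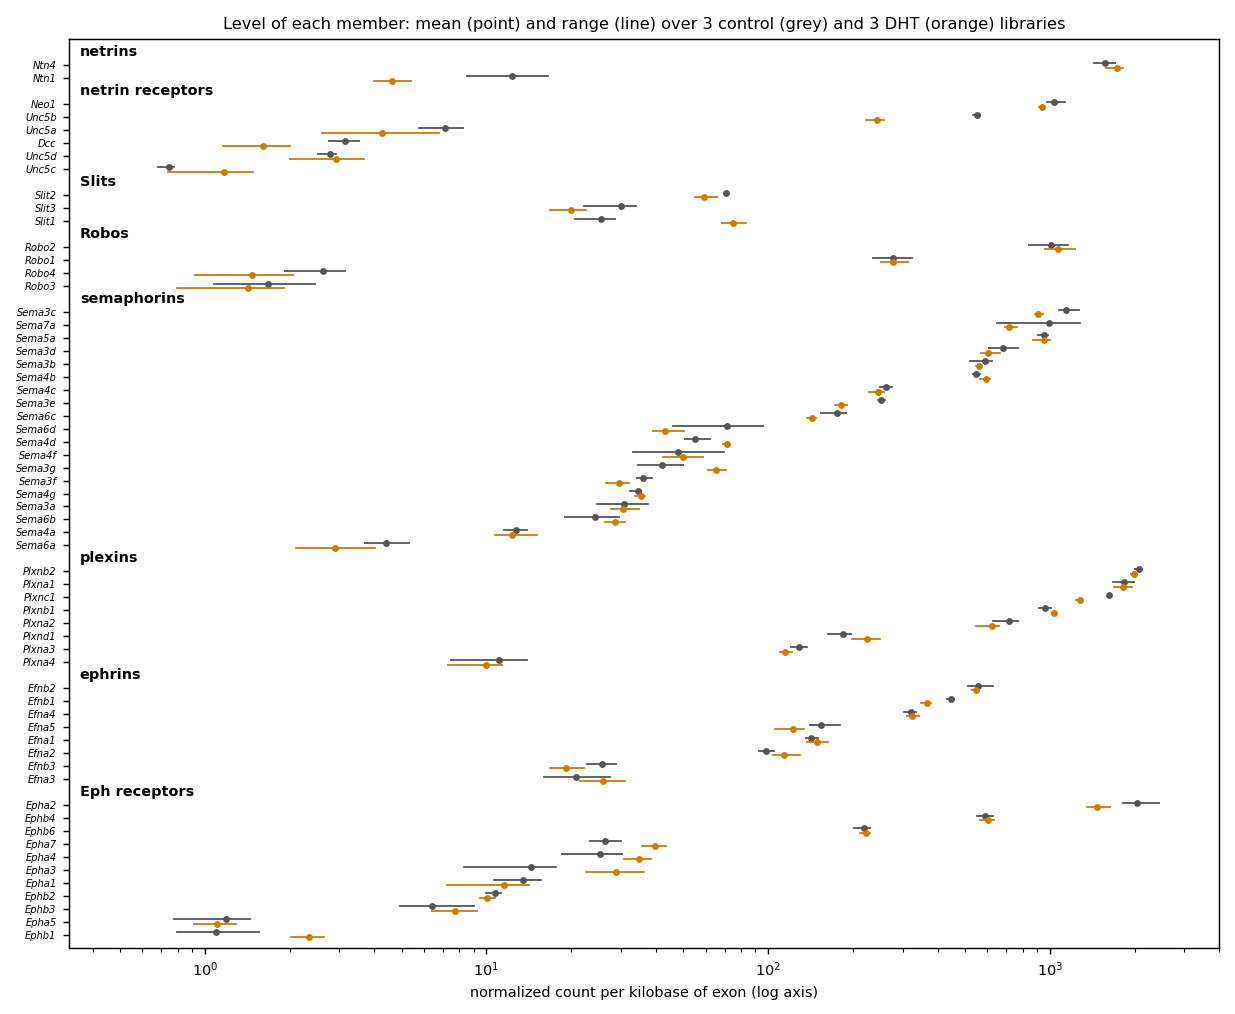
Level of each of the 61 members in normalized counts per kilobase of exon on a log axis, as the mean (point) and range (line) over 3 control (grey) and 3 DHT (orange) libraries, grouped by family and ordered by control level. Plexins sit mostly at the right, with Plxnb2 at 2070 in control, whereas Unc5b, Ntn1 and Slit1 show grey and orange ranges that do not meet.

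The comparison of DHT with control asks which of these genes change after androgen. Among the 61 members, 14 passed the test (adjusted p of at most 0.05, limma with Benjamini-Hochberg adjustment over 16292 genes), 5 of them higher and 9 lower in DHT. The members that rose were Slit1, Epha3, Epha7, Sema3g and Sema4d, which is 8.2% of the members against 6.52% of all genes tested. Those that fell were Unc5b, Ntn1, Dcc, Plxnc1, Sema3e, Sema3c, Efnb1, Epha2 and Slit2, which is 14.8% of the members against 4.66% of all genes. With an absolute log2 fold change above 1 as well, 2 members were called higher (Slit1 and Epha3; 3.28% of members, 0.908% of all genes) and 2 lower (Unc5b and Ntn1; 3.28% of members, 0.399% of all genes). No test of the list as a whole was made, and its members were chosen by symbol with earlier results of these data known.

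The direction was mixed over the list. The median log2 fold change of the members was -0.06, and that of all genes was near 0 (-0.005), with 25 members above 0 and 36 below. Control and DHT libraries did not overlap for 23 members (37.7%), against 30.6% of all genes tested, and the 14 that passed were among them. By role, 3 ligands rose and 5 fell of 32, and 2 receptors rose and 4 fell of 29. Of the 14, only Unc5b, Plxnc1, Sema3e, Slit1 and Efnb1 also passed without the intensity trend in the variance (adjusted p 0.00802 to 0.047), and the other 9 then had an adjusted p of 0.0518 to 0.159.

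**Figure D2:**
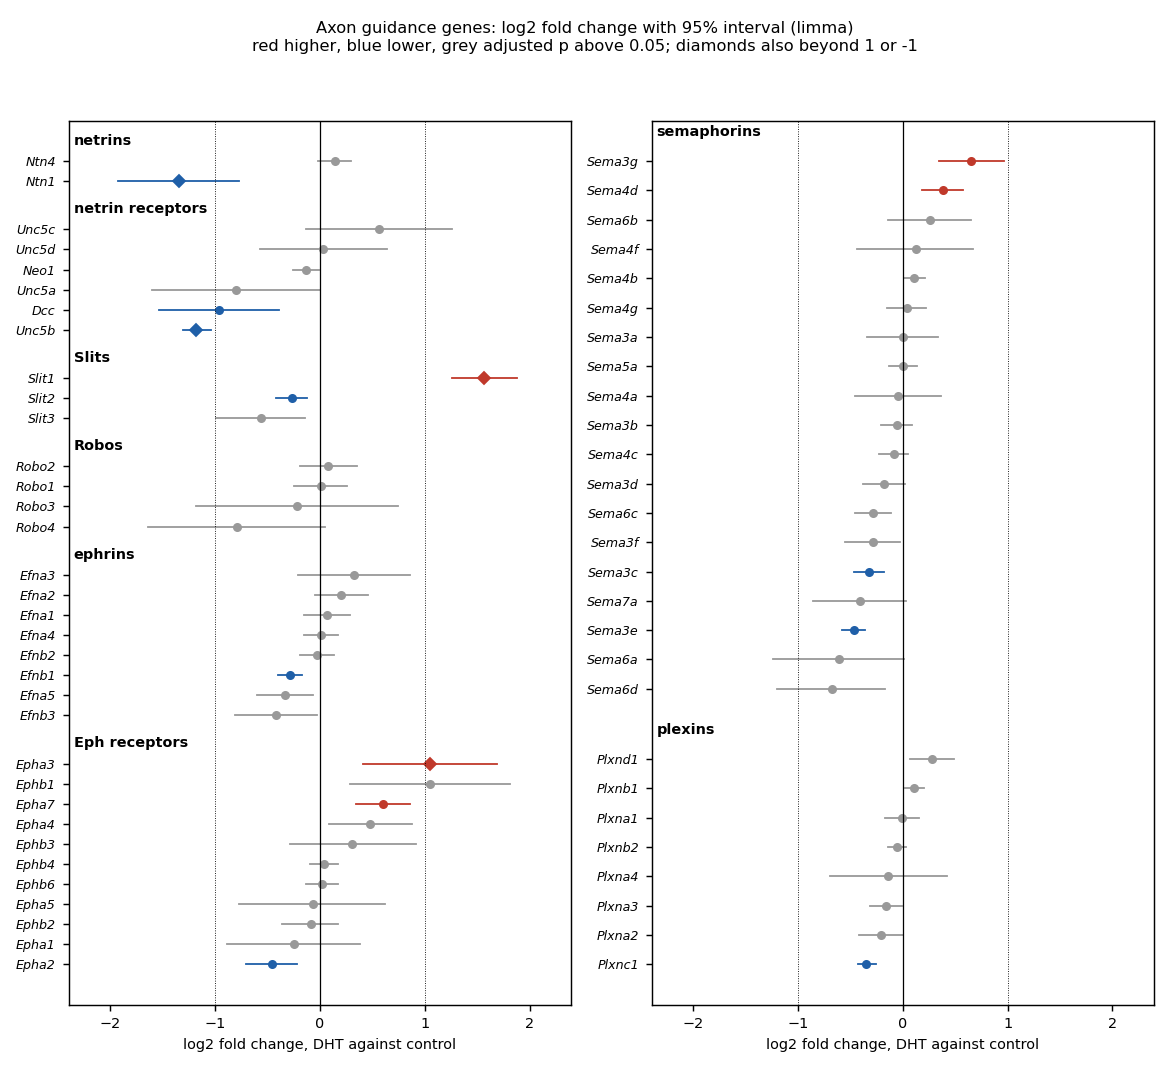
log2 fold change of DHT against control for the 61 members by family (points) with the 95% interval from limma (lines). Red points rose and blue points fell at an adjusted p of at most 0.05, diamonds (Slit1, Epha3, Unc5b and Ntn1) also lie beyond 1 or -1, and grey points did not pass.

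The netrin system held the clearest fall. Unc5b, a netrin receptor, had 3528, 3338 and 3467 normalized counts in the control libraries and 1619, 1568 and 1394 after DHT. Every DHT library lay at less than 50% of any control library, and the replicates of each group were close to each other. The level was 2.26-fold lower in DHT (log2 fold change -1.18 ± 0.06, SE; adjusted p = 2.98e-05, limma), the smallest adjusted p of all members. Unc5b lies on chromosome 10 (GRCm38, 60762593 to 60831581, minus strand). Its call held under each alternative and with each library left out.

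Ntn1, which encodes netrin-1, the secreted ligand of these receptors, was low in GCs, with 103.9, 75.3 and 53.7 normalized counts in control and 28.4, 25.1 and 33.7 in DHT. The control libraries were spread over almost a doubling, yet the lowest of them was still above the highest DHT library. Ntn1 fell by 1.35 ± 0.26 on the log2 scale (adjusted p = 0.0105, limma), a 2.67-fold lower level, and passed with any single library left out (adjusted p up to 0.0457). The gene is on chromosome 11 (68209364 to 68400823, minus strand).

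Dcc, the receptor that mediates attraction to netrin-1, was barely detected. Its control libraries had 41.6, 36.2 and 46.3 normalized counts, and 26.4, 21.8 and 15.2 were found in DHT. The groups did not overlap, but the values are small. The log2 fold change was -0.96 ± 0.25 (adjusted p = 0.0427, limma), and it did not pass with DESeq2 (adjusted p = 0.0777) or without DHT replicate 2 (0.103), DHT replicate 3 (0.131), control replicate 1 (0.105), control replicate 2 (0.0746) or control replicate 3 (0.0961).

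The most abundant netrin receptor and the more abundant netrin did not pass. Neo1, a receptor shared by netrins and repulsive guidance molecules, had 8624, 8530 and 9839 normalized counts in control and 8347, 8214 and 7988 in DHT. The groups did not overlap, but the difference was small beside the others (log2 fold change -0.13, adjusted p = 0.171, limma). Ntn4, a laminin-binding netrin found in basement membranes, had 6355, 5949 and 5378 in control and 5908, 6790 and 6788 in DHT, with overlapping groups (log2 fold change 0.14, adjusted p = 0.263). Of the other Unc5 receptors, none passed. With all libraries Unc5a had the largest difference (log2 fold change -0.80, adjusted p = 0.196), with values between 10.9 and 34.4 in the 6 libraries, and Unc5c and Unc5d stayed at or under 33.8 in each. Without DHT replicate 2 the largest was that of Unc5c (log2 fold change 0.85, against -0.53 for Unc5a). Per kilobase, Unc5b went from 53% of the level of Neo1 in control (550 ± 15.5 against 1032 ± 83.8) to 26% in DHT (244 ± 18.8 against 939 ± 20.8).

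Of the 3 Slits, the secreted ligands of Robos, 1 rose, 1 fell and 1 did not pass. Slit1 had 121.7, 161.7 and 168.6 normalized counts in control and 406.1, 436.4 and 493.0 in DHT. All DHT libraries were well above all control libraries. The 2.95-fold higher level (log2 fold change 1.57 ± 0.14, adjusted p = 0.000221, limma) was the largest change of any member, and it passed under every alternative run (log2 fold change 1.42 to 1.65 with each library left out). Slit1 lies on chromosome 19 (41600257 to 41743665, minus strand).

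Slit2 had 1812, 1812 and 1800 normalized counts in control and 1673, 1403 and 1438 in DHT. The control libraries were almost identical and all were above the DHT libraries. Slit2 fell by 0.27 ± 0.07 on the log2 scale (adjusted p = 0.0303, limma). It did not pass without DHT replicate 2 (adjusted p = 0.119), DHT replicate 3 (0.12), control replicate 1 (0.071) or control replicate 2 (0.0836). Slit3 did not pass (log2 fold change -0.56, adjusted p = 0.0941). It had 134.6, 203.5 and 206.6 in control and 137.0, 124.4 and 102.3 in DHT, so that control replicate 1 lay among the DHT libraries.

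The order of the Slits per kilobase of exon thus differed between the groups. In control, Slit2 was highest (71.1 ± 0.27 normalized counts per kilobase), with Slit3 (29.9 ± 6.71) and Slit1 (25.4 ± 4.28) within each other's spread. In DHT, Slit1 was at 75.2 ± 7.45, above Slit2 at 59.2 ± 5.79 and Slit3 at 20.0 ± 2.90. This order rests on the exon lengths, 25.43 kb for Slit2 against 5.921 for Slit1 and 6.067 for Slit3. By mean normalized count, Slit2 was above Slit1 in DHT as well (1505 against 445.1). No Robo passed. Robo2, the most abundant of the Slit receptors, had 14270, 17460 and 19700 normalized counts in control and 20830, 17170 and 16310 in DHT, and Robo1, the other abundant one, had a log2 fold change of 0.01 (adjusted p = 0.977). Both were spread as widely within groups as between them. The largest difference among Robos was that of Robo4, best known from endothelium, at 4.89 to 16.7 normalized counts (log2 fold change -0.79, adjusted p = 0.227).

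**Figure D3:**
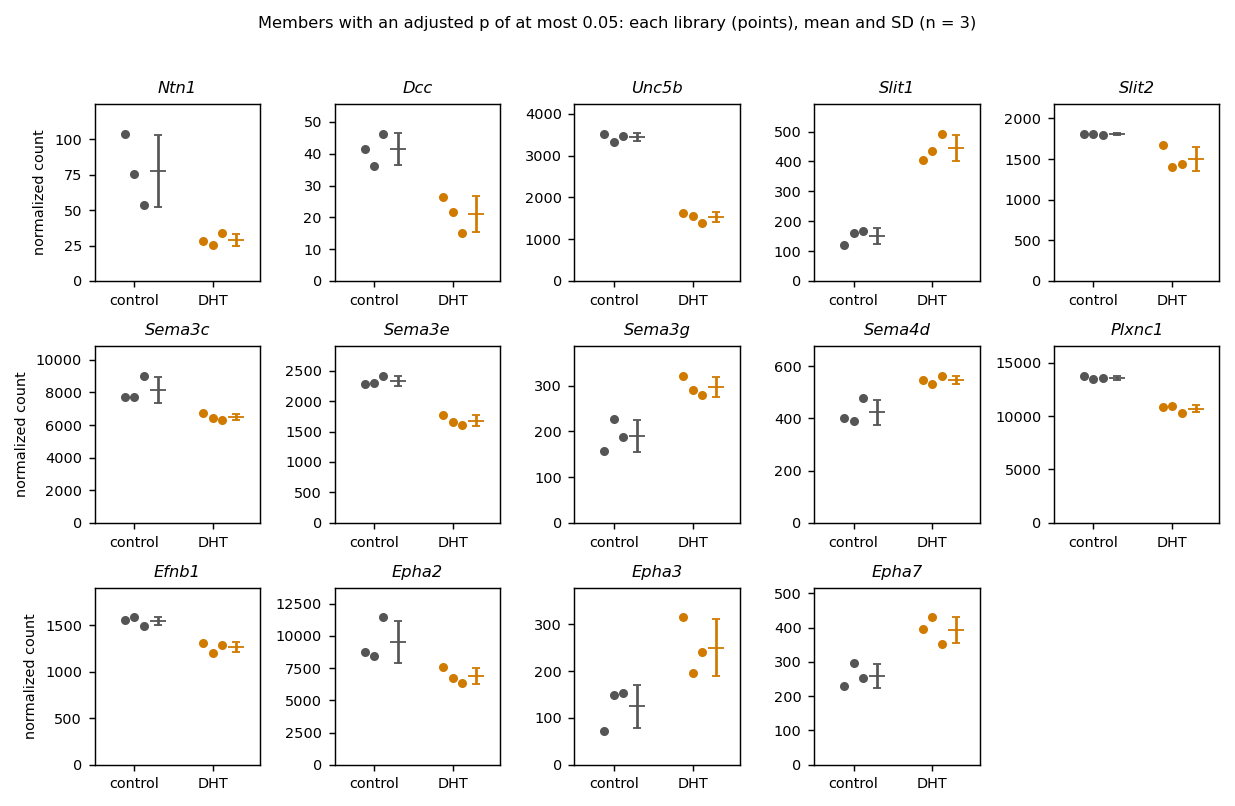
Normalized counts of the 14 members with an adjusted p of at most 0.05, with each library as a point and the mean with its SD (n = 3) beside it, control in grey and DHT in orange, each panel with its own axis from 0. In each panel the 3 DHT points lie all above or all below the 3 control points, most clearly for Slit1 and Unc5b.

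Semaphorins were the largest family, with 19 members, of which 2 rose and 2 fell. Sema3e, a secreted semaphorin that binds Plxnd1, had 2282, 2292 and 2419 normalized counts in control and 1772, 1658 and 1610 in DHT. The replicates were tight and the groups far apart (log2 fold change -0.47 ± 0.05, adjusted p = 0.000504, limma), and it passed under every alternative. Sema3c, a secreted ligand of neuropilins, had 7712, 7696 and 9039 in control and 6727, 6455 and 6308 in DHT. It fell by 0.32 ± 0.06 on the log2 scale (adjusted p = 0.0114) and did not pass without DHT replicate 3 (adjusted p = 0.0589).

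The semaphorins that rose were expressed at lower levels. Sema3g, a class 3 semaphorin known from endothelium, had 157.3, 226.7 and 188.1 normalized counts in control and 321.9, 290.2 and 278.6 in DHT. Its DHT libraries were all above the control libraries (log2 fold change 0.65 ± 0.14, adjusted p = 0.0168, limma), although it did not pass without DHT replicate 1 (adjusted p = 0.0604), DHT replicate 2 (0.0576) or DHT replicate 3 (0.0502). Sema4d, a membrane-bound ligand of Plxnb1, had 402.7, 388.4 and 477.1 in control and 545.0, 532.3 and 563.7 in DHT. It was 1.29-fold higher in DHT (log2 fold change 0.38 ± 0.09, adjusted p = 0.0247). Without DHT replicate 1 (adjusted p = 0.066), DHT replicate 2 (0.072), DHT replicate 3 (0.101), control replicate 1 (0.0688) or control replicate 2 (0.078) it did not pass.

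The other 15 semaphorins had log2 fold changes of -0.68 to 0.26 and adjusted p of 0.0501 to 0.987. The largest difference was in Sema6d, a transmembrane semaphorin, at 1015, 762 and 484.5 normalized counts in control and 412.9, 529.1 and 415.7 in DHT. Control replicate 3 lay among the DHT libraries (log2 fold change -0.68, adjusted p = 0.0957, limma), and without it the adjusted p was 0.00252. Without control replicate 1 the log2 fold change was -0.43 (adjusted p = 0.214). Sema5a, the semaphorin with the highest normalized count, had the same mean in both groups (17810; log2 fold change 0.00, 95% interval -0.13 to 0.13). Sema3b, Sema3d and Sema4b, which were also abundant, did not pass either.

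Plexins, the signalling receptors of semaphorins, were abundant, and 1 of 8 passed the test. Plxnc1, the receptor of Sema7a, had 13800, 13430 and 13550 normalized counts in control and 10820, 10930 and 10310 in DHT. The replicates differed by a few percent while the groups differed 1.27-fold (log2 fold change -0.35 ± 0.04, adjusted p = 0.000558, limma), and it passed under every alternative. Plxnb2, the most abundant plexin, had 15550, 16100 and 16290 in control and 15240, 15780 and 15040 in DHT. Its groups overlapped (log2 fold change -0.06, 95% interval -0.14 to 0.03). Plxna1 was also level (log2 fold change -0.01, 95% interval -0.17 to 0.15), although 10.7% of its exonic bases are shared with an overlapping gene on the other strand. The largest difference among those that did not pass was that of Plxnd1 (log2 fold change 0.28, adjusted p = 0.0954), the receptor of Sema3e.

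Among the 8 ephrins, the membrane-bound ligands of Eph receptors, only Efnb1 passed. It had 1556, 1582 and 1491 normalized counts in control and 1307, 1200 and 1286 in DHT. All control libraries were higher (log2 fold change -0.29 ± 0.05, adjusted p = 0.007, limma), under every alternative as well. Efnb2, the most abundant ephrin, had 3517, 4315 and 3645 in control and 3765, 3845 and 3621 in DHT, and its groups overlapped (log2 fold change -0.03, adjusted p = 0.862). The A-class ephrins had log2 fold changes of -0.33 (Efna5) to 0.32 (Efna3), and 14.1% of the exonic bases of Efna3 are shared with a gene on the other strand. Of the ephrins, the largest difference of those that did not pass was that of Efnb3 (log2 fold change -0.42, adjusted p = 0.164).

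Of the 11 Eph receptors, which are receptor tyrosine kinases, 2 rose, 1 fell and 8 did not pass. Epha2, a receptor of epithelia and the dominant Eph receptor of these cells, had 8775, 8470 and 11440 normalized counts in control and 7623, 6711 and 6342 in DHT. Control replicate 3 stood above the other libraries, and the groups did not overlap. Epha2 fell by 0.46 ± 0.11 on the log2 scale (adjusted p = 0.0275, limma). It did not pass without DHT replicate 2 (adjusted p = 0.0952) or DHT replicate 3 (0.115).

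The Eph receptors that rose were of low abundance. Epha7 had 229.5, 297.4 and 252.0 normalized counts in control and 397.3, 429.8 and 352.6 in DHT, a 1.52-fold higher level (log2 fold change 0.60 ± 0.12, adjusted p = 0.0113, limma). All DHT libraries were above all control libraries, but it did not pass without DHT replicate 2 (adjusted p = 0.0562). Epha3 had 72.2, 149.6 and 152.9 in control and 315.1, 196.4 and 240.5 in DHT. Control replicate 1 and DHT replicate 1 were the extremes of the 6 libraries, and the other control libraries lay much closer to the DHT libraries.

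Epha3 was 2.01-fold higher in DHT (log2 fold change 1.05 ± 0.29, adjusted p = 0.0472, limma), just inside the threshold. The call was lost without DHT replicate 1 (log2 fold change 0.87, adjusted p = 0.142), DHT replicate 2 (0.0666), DHT replicate 3 (0.134), control replicate 2 (0.0564) or control replicate 1 (log2 fold change 0.70, adjusted p = 0.0542). The gene is on chromosome 16 (63543534 to 63864175, minus strand). Ephb1 was at far lower counts, with 5.58 to 10.9 in control and 14.2 to 18.6 in DHT, and did not pass (log2 fold change 1.05 ± 0.34, adjusted p = 0.0841). Ephb4, the receptor of Efnb2 and the second Eph receptor by level per kilobase, was level (log2 fold change 0.04, 95% interval -0.10 to 0.17). Per kilobase in DHT, Epha2 (1475 ± 141) was far above Epha7 (39.8 ± 3.92) and Epha3 (28.8 ± 6.90).

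The promoters of the called members are shown because androgens act through a receptor that binds DNA at androgen response elements, and the RefSeq promoter table used (GRCm38.p6) held those of Unc5b and Epha3. Those of Slit1 and Ntn1 were not analysed here. The androgen response element half-site AGAACA was searched on both strands in the 250 bases before the transcription start. Capitals mark CpG dinucleotides. Unc5b is shown at chr10:60831582-60831831 and Epha3 at chr16:63864176-63864425, both on the minus strand and 5′ to 3′.
Unc5b: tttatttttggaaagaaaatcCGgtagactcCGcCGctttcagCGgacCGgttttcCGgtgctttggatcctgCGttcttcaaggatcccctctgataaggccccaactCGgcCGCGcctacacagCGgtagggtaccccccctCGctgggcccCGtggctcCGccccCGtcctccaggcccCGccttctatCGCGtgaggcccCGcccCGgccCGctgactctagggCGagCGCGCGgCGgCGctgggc
Epha3: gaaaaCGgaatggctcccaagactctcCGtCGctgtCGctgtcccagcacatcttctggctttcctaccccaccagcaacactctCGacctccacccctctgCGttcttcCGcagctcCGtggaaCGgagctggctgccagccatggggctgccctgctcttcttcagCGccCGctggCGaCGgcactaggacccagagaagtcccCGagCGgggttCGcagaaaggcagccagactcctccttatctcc
Neither window holds the half-site letters. The Unc5b window has 27 CpG dinucleotides and 66.8% G and C, and the Epha3 window has 16 and 62.8%. The median over all promoters of this length is 6 CpG and the upper quartile 16. Over all 32851 promoters, 16.1% hold the half-site. Of the members, 51 matched the promoter table with 67 promoters, of which 7 (10.4%) hold it, and of the 14 promoters of members that passed 2 do (14.3%), both of Sema4d. A missing match says only that these letters are not in this window.

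Co-receptors and other guidance ligands were followed in a separate list, of which 27 of 34 listed symbols were in the table (2 of the other 7 name 1 gene), and 2 rose and 2 fell (7.41% each, against 6.52% and 4.66% of all genes). Nrp1, the neuropilin that forms the ligand-binding part of class 3 semaphorin receptors and also binds VEGF, had 1353, 1112 and 903.2 normalized counts in control and 543.1, 684.0 and 607.3 in DHT. All control libraries were higher (log2 fold change -0.86 ± 0.14, adjusted p = 0.00442, limma). Its relative Nrp2 did not pass, with 2756, 2898 and 2726 in control and 2892, 3169 and 2820 in DHT. Islr2 rose (log2 fold change 0.92, adjusted p = 0.0125), as did Gpc1, a glypican to which Slits bind (0.40, adjusted p = 0.00417), and Tenm3, a teneurin, fell (log2 fold change -0.60, adjusted p = 0.0329). Of these 4, only Islr2 passed without the intensity trend (adjusted p = 0.0554 for Nrp1 and Gpc1 and 0.143 for Tenm3), and it did not pass without DHT replicate 3 (0.0614). Tenm3 did not pass with DESeq2 (0.0504) and without DHT replicate 2 (0.119), DHT replicate 3 (0.131), control replicate 2 (0.0917) or control replicate 3 (0.0603).

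Of the intracellular effectors of guidance receptors, 66 of 70 listed symbols were in the table (1 of the other 4 is an older name of Ngef), and 10 rose (15.2%, against 6.52% of all genes) and 3 fell (4.55%, against 4.66%). Dpysl5, a collapsin response mediator protein, had 739.1, 976.7 and 963.4 normalized counts in control and 2068, 1856 and 1987 in DHT. Its DHT libraries were all far above the control libraries (log2 fold change 1.15 ± 0.10, adjusted p = 0.000224, limma). Mical1, an actin-oxidizing enzyme that plexins recruit, had 1802, 1975 and 1881 in control and 2584, 2792 and 2621 in DHT, again with no overlap (log2 fold change 0.50, adjusted p = 0.000405). Ngef, a guanine nucleotide exchange factor downstream of Eph receptors, had the largest change of the list at very low counts, with 6.93, 4.65 and 7.41 in control and 24.5, 18.5 and 14.2 in DHT (log2 fold change 1.44, adjusted p = 0.0264). This rank depends on the added count, since with a pseudocount of 8 the change of Ngef was below that of Dpysl5 (1.14). It did not pass without DHT replicate 1 (adjusted p = 0.0962), DHT replicate 2 (0.0868), control replicate 1 (0.0544) or control replicate 2 (0.0766).

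The other effectors that rose included Dpysl4, Rnd2, Enah, Fyn, Limk2 and Vasp, and Rnd3, Srgap1 and Rock2 fell. Of the 13, Dpysl5, Mical1, Enah, Rnd2 and Rnd3 passed under every alternative. Enah and Vasp are actin regulators of the Ena/VASP family, and Srgap1 is a GTPase-activating protein that binds Robos. Of the proteases that cleave guidance ligands or receptors, 12 of 15 were in the table and only Mmp2, a gelatinase, passed (8.33% higher, against 6.52% of all genes tested). It had 654.0, 952.5 and 730.0 normalized counts in control and 1492, 1864 and 2057 in DHT, with no overlap (log2 fold change 1.22 ± 0.15, adjusted p = 0.00109, limma). The median log2 fold changes of the co-receptor, effector and protease lists were 0.03, 0.02 and -0.04, beside -0.005 for all genes.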

How the data were processed

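Total RNA of 3 control and 3 DHT samples was sequenced as paired ends. The authors trimmed reads with Trimmomatic 0.36, mapped them to GRCm38 with STAR 2.5.2b and counted unique exonic reads with featureCounts of Subread 1.5.2. Whether strand was used is not given in the sources used here, so overlapping genes are uncertain. The deposited signal of each gene is a normalized count, the read count divided by a size factor per library, and 100% of the values in each library returned whole reads (tolerance 0.01). Deposited fold changes and p-values were not used.

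Values were tested as log2(normalized count + 1) by limma 3.58.1 (R 4.3.3), letting the variance follow intensity, in the 16292 genes averaging 10 or more, and p-values were adjusted by Benjamini-Hochberg. log2 fold changes are on this scale, where the added count pulls those of low genes toward 0, and values given as N-fold are ratios of the group means of normalized counts. Genes passed when the adjusted p did not exceed 0.05 and were called when they also changed by more than 1 on the log2 scale. Lengths are the union of GENCODE M21 exons. edgeR 4.0.16 and DESeq2 1.42.0 on the recovered reads, pseudocounts of 0.5 and 8, other filters, TMM scaling, no trend, a replicate block and each library left out were alternatives. The tests were tested on simulated data.

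Libraries were given for every member that passed and the highest member of each family per kilobase, and other members by range and largest change. Some genes of the other lists are not reported here. The members and lists were chosen with earlier results of these data known. The table held no gene with a mean under 10.2 reads. The replicates are pools of mice. The p-values set each difference against the spread between libraries of a group, with the variance drawn toward its trend over all genes.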

Additional observations from a re-analysis of the deposited data

How the results depend on the processing

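The number of members that rose was 5 and went to 1 without the intensity trend, 3 with the replicate block and 1 to 7 with 1 library left out. The number that fell was 9, and it was 4 without the trend, 6 with the replicate block and 5 to 10 with 1 library left out. Of the members called higher, 2 became 1 without the trend, 1 with the replicate block and 1 to 2 with 1 library left out, and of those called lower 2 became 1 without the trend and 2 to 4 with 1 library left out (4 without DHT replicate 1, where Dcc and Unc5a had log2 fold changes of -1.13 and -1.18). The causes were not tested. Pseudocounts, filters, TMM scaling, edgeR and DESeq2 left these counts within 1.5 times. The median log2 fold change of the members lay between -0.08 and -0.03 throughout.

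Over all genes, 1063 rose and 760 fell, against 501 and 303 without the trend, 633 and 357 with the replicate block, 586 and 384 without DHT replicate 2, and 581 and 350 without DHT replicate 3. Deviations of same-numbered libraries correlated at 0.0058, 0.067 and -0.24. With 3 libraries per group, such correlations cannot tell whether same-numbered libraries came from the same pool of mice. The replicate block had been set as an alternative only and was not used for calls. With it, 9 of the 14 members passed.

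Over 45 members and other guidance genes given with values there were 667 combinations of gene and alternative with a p-value, of which 582 kept their direction and side of the threshold, 56 lost and 15 gained it. Directions turned in 14, all of genes near 0 that did not pass. With 1 library left out, the log2 fold changes of these ranged from -0.043 to 0.189 for Robo2, -0.084 to 0.064 for Efnb2, -0.103 to 0.127 for Robo1, -0.071 to 0.055 for Plxna1, -0.01 to 0.085 for Ephb4 and -0.037 to 0.062 for Sema5a, which was also 0.002 with edgeR. Members under about 50 normalized counts, such as Dcc, Robo4 and Unc5a, have wide intervals at this depth.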

Other observations

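Some members lay outside the threshold and moved inside it when 1 setting or 1 library was changed. They were named after their values were seen. Sema6c, a transmembrane semaphorin, had 1089, 911.6 and 1117 normalized counts in control and 874.8, 818.2 and 856.5 in DHT, with no overlap (log2 fold change -0.29, adjusted p = 0.0501, limma), and passed with edgeR (adjusted p = 0.0469), DESeq2 (0.0165) and a filter at a mean of 50 (0.0477), and without control replicate 2 (0.00768). It also passed with a pseudocount of 8 (0.0488) and with no filter (0.05). Slit3 passed with DESeq2 (adjusted p = 0.0354) and without control replicate 1 (0.0172), and Plxnd1 with DESeq2 (0.0258) and without DHT replicate 1 (0.0451). Unc5a passed without DHT replicate 1 (0.0498), but without DHT replicate 2 its log2 fold change was -0.53 (adjusted p = 0.465).

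Sema7a, the ligand of Plxnc1, had 4209, 3487 and 2144 normalized counts in control and 2323, 2513 and 2279 in DHT. The DHT libraries were close to each other and control replicate 3 was the lowest library of all. The log2 fold change was -0.41 (adjusted p = 0.236, limma), and without control replicate 3 it was -0.69 (adjusted p = 0.000669). Without control replicate 1 it was -0.21 (adjusted p = 0.53). Sema6d also had control replicate 3 at the low end of control. Epha4 and Plxnb1 also passed without control replicate 3 (adjusted p = 0.0388 and 0.0477). With all libraries their log2 fold changes were 0.48 and 0.11. Without control replicate 1 these were 0.27 and 0.08 (adjusted p = 0.236 and 0.302, limma).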
